A study of Rattus norvegicus with 9 samples.

Results

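Interferon-stimulated genes with different timing after lung injury were followed in rat alveolar macrophages, the phagocytes that patrol the air spaces of the lung. The 10 genes are Irf7, Irf5, Isg15, Usp18, Mx2, Ifit3, Oasl, Irgm, Ifi44 and Bst2, picked by symbol from 17086 genes with a row. They were chosen with their values in these libraries known, because some were high only at day 1 and others at day 28, so their own levels are given as a description without a test. All 10 passed the filter on low values that left 9876 genes for testing, and each lay above 1 FPKM in all 9 libraries. FPKM are fragments normalised to transcript length and to sequencing depth.

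There were 3 biological replicates in each of 3 groups. In NM day 1 and NM day 28, male Wistar rats of 225 to 250 g had received nitrogen mustard (NM, mechlorethamine hydrochloride), an alkylating agent that cross-links DNA, at 0.125 mg/kg into the trachea, and the cells were collected by lung massage after 1 d or 28 d. In PBS, rats of the same strain and sex had received phosphate-buffered saline by the same route, at a collection time not given in the sources used here. No transgene or deletion is named in the labels, and neither the animals' age nor the number of animals behind a library was given. The study's title names macrophage foam cells and pulmonary fibrosis.

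Type I interferons bind a receptor on the cell surface, whose kinases activate Stat2. With Irf9 it takes part in a complex that binds the interferon-stimulated response element, a short DNA motif in front of many target genes, while interferon gamma acts through the gamma-activated sequence. The target genes encode proteins that block virus entry, translation and release, and also regulators that amplify or end the response. Alveolar macrophages are known as a source of type I interferon in infected lungs.

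The promoters of 7 of the 10 genes had an entry in the RefSeq table (assembly GRCr8), each a window of 250 bases before and 50 after the start site. Mx2, Isg15 and Usp18 had none. Both strands were searched for the response element, taken as GAAA, any 2 bases and GAAA, and for the gamma-activated sequence, taken as TTC, any 3 bases and GAA. The response element was found in 5 of the 7 windows (Irf7, Ifit3, Irgm, Ifi44 and Bst2) and in 1034 of 27457 windows of all genes (3.77%). Among 82 windows of other interferon pathway genes, 36 held it (43.9%). The 5 upstream sequences are shown because genes of each timing carry the same motif in them. They run 5′ to 3′ on the strand of the gene, from 250 bases before the start to the last base before it, with the response element in capitals (its complement, read backwards, where it lies on the other strand):
Irf7 (chr1:205800024-205800273, minus strand): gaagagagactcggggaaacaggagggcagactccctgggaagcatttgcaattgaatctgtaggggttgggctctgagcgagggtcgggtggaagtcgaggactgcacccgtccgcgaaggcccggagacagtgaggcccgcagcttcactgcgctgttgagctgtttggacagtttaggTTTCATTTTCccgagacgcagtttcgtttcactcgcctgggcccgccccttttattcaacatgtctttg
Ifit3 (chr1:241527076-241527325, plus strand): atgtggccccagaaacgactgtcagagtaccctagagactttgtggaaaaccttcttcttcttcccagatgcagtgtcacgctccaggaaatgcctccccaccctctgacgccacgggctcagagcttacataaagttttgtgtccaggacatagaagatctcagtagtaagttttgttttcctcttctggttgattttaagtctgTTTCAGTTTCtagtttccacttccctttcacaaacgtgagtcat
Irgm (chr10:33742579-33742828, minus strand): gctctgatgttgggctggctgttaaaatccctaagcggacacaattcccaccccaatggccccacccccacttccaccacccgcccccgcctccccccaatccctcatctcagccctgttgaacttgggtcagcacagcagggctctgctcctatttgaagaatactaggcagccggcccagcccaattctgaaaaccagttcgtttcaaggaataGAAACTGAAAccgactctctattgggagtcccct
Ifi44 (chr2:243303841-243304090, minus strand): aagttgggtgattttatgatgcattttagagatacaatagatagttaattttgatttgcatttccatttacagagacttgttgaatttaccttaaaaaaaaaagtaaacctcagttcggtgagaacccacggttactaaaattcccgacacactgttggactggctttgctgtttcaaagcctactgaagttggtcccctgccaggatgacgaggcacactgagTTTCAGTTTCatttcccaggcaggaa
Bst2 (chr16:18254968-18255217, minus strand): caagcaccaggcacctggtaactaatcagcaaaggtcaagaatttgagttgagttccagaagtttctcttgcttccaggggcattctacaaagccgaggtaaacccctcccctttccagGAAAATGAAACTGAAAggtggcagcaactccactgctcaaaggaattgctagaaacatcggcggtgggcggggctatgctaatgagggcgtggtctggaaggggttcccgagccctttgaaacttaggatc

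The element with CT between the GAAA on either side, in either direction, stood in front of Ifit3, Irgm and Ifi44 and was the nearer of 2 overlapping matches of Bst2. It began 44 bases before the start of Ifit3, 34 bases before that of Irgm and 26 bases before that of Ifi44. The Bst2 matches spanned -131 to -122 and -125 to -116, and that of Irf7 spanned -69 to -60. Ifi44 had a second match after its start, from 27 to 36, which is not printed. The gamma-activated sequence was found before Irgm (-45 to -37) and before Bst2 (-137 to -129, where it overlaps the first response element), and in 2382 of the 27457 windows (8.68%). These letters were not in the windows of Irf5 and Oasl. A match is a description of the sequence and not a measurement of binding.

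**Figure D1:**
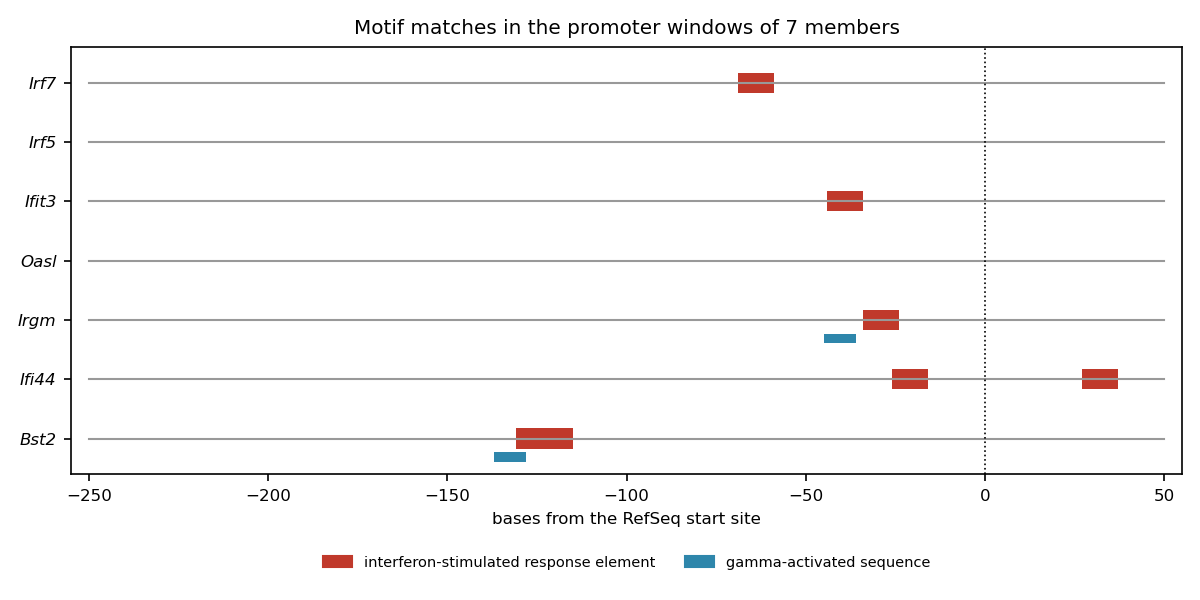
Positions of the motif matches in the 7 promoter windows, in bases from the RefSeq start site (dotted line). Red blocks are the response element and blue blocks the gamma-activated sequence, and 5 of the 7 lines carry a red block, between -131 and 36.

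The regulators come first. Irf7, the transcription factor that amplifies type I interferon production, had 31.7, 37.8 and 47.4 FPKM in the NM day 1 libraries (replicates 0, 1 and 2, the order used throughout), 9.97, 11.2 and 13.8 FPKM in the NM day 28 libraries and 11.9, 6.98 and 8.14 FPKM in the PBS libraries. Every NM day 1 library lay above every other library, while the NM day 28 and PBS libraries overlapped. The group means were 39.0 ± 7.92 FPKM at NM day 1, 11.6 ± 1.94 FPKM at NM day 28 and 9.01 ± 2.59 FPKM in PBS (SD, n = 3 each). The fitted log2 fold change against PBS was 2.01 ± 0.23 (SE) at NM day 1 and 0.36 ± 0.23 at NM day 28.

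Irf5, a transcription factor downstream of Toll-like receptors that drives inflammatory cytokine genes, spanned a narrower range. It had 49.1, 43.5 and 40.4 FPKM at NM day 1, 35.5, 29.8 and 36.3 FPKM at NM day 28 and 29.9995, 31.1 and 28.0 FPKM in PBS. The NM day 1 libraries were above all others, and of the NM day 28 libraries replicate 1 lay inside the PBS range. The ratio of means was 1.49 at NM day 1 against PBS and 1.14 at NM day 28 against PBS.

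Isg15 encodes a small ubiquitin-like protein that is attached to other proteins in interferon-treated cells, and Usp18 is the protease that removes it and also blocks signalling at the type I receptor. Isg15 had 58.5, 86.5 and 68.1 FPKM at NM day 1, 19.2, 8.42 and 20.1 FPKM at NM day 28 and 18.4, 14.6 and 15.5 FPKM in PBS. Its NM day 1 libraries stood apart from all others, and NM day 28 replicate 1 was the lowest of the 9. Usp18 had 43.4, 37.4 and 45.3 FPKM at NM day 1, 24.2, 34.0 and 28.6 FPKM at NM day 28 and 20.9, 17.3 and 12.8 FPKM in PBS. For Usp18 the groups did not overlap, and NM day 28 lay between NM day 1 and PBS. The ratio of means at NM day 28 against PBS was 1.70 for the protease Usp18 and 0.985 for its substrate tag Isg15. Usp18 had 2 transcript rows, of which 1 was listed at 0 in every library.

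Among the antiviral effectors, Mx2 differed most between the 2 days. Mx2, a dynamin-like GTPase with antiviral activity, had 24.8, 27.4 and 29.5 FPKM at NM day 1, 2.49, 1.42 and 2.73 FPKM at NM day 28 and 1.75, 1.07 and 1.59 FPKM in PBS. The mean at NM day 1 was 18.5 times that of PBS, and the mean at NM day 28 was 1.501 times that of PBS, with overlapping libraries.

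Ifit3, an adaptor protein that strengthens antiviral signalling, had 65.6, 63.1 and 49.9 FPKM at NM day 1, 47.8, 15.9 and 55.1 FPKM at NM day 28 and 9.90, 5.81 and 8.69 FPKM in PBS. Every library of either NM group lay above every PBS library, and the NM day 28 and NM day 1 libraries overlapped. The mean was 7.32 times that of PBS at NM day 1 and 4.87 times at NM day 28. Oasl, a relative of the oligoadenylate synthetases that lacks their activity and whose mouse counterpart Oasl1 restrains Irf7 translation, showed the same order. It had 13.9, 14.7 and 15.4 FPKM at NM day 1, 10.02, 4.25 and 9.86 FPKM at NM day 28 and 2.73, 2.17 and 2.48 FPKM in PBS, and no groups overlapped.

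Irgm, a GTPase known from mouse and human for roles in autophagy and in the defence against intracellular bacteria, had 8.13, 8.16 and 11.3 FPKM at NM day 1, 6.57, 7.40 and 7.79 FPKM at NM day 28 and 4.72, 5.29 and 5.28 FPKM in PBS. The 3 groups did not overlap, but their means of 9.19 ± 1.80, 7.26 ± 0.62 and 5.10 ± 0.33 FPKM (SD, n = 3 each) lay close together. Ifi44, an interferon-induced cytoplasmic protein, was the member whose highest mean was at day 28. It had 9.98, 12.2 and 22.9 FPKM at NM day 1, 32.7, 26.3 and 22.3 FPKM at NM day 28 and 14.8, 14.8 and 12.9 FPKM in PBS. The NM day 28 libraries lay above all PBS libraries. NM day 1 replicate 2, at 22.9 FPKM, lay inside the NM day 28 range, and the other NM day 1 libraries lay below PBS.

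Bst2 ran the other way. It encodes tetherin, a membrane protein that holds budding virus particles on the cell surface, and had the highest FPKM of the 10 genes in every library. Its level was 693, 1003 and 925 FPKM at NM day 1, 357, 167 and 310.5 FPKM at NM day 28 and 1697, 1466 and 1056 FPKM in PBS. All NM day 1 libraries were below all PBS libraries, and all NM day 28 libraries were below both other groups. The ratio of means against PBS was 0.621 at NM day 1 and 0.198 at NM day 28, and the fitted log2 fold changes were -0.68 ± 0.28 and -2.38 ± 0.28 (SE).

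**Figure D2:**
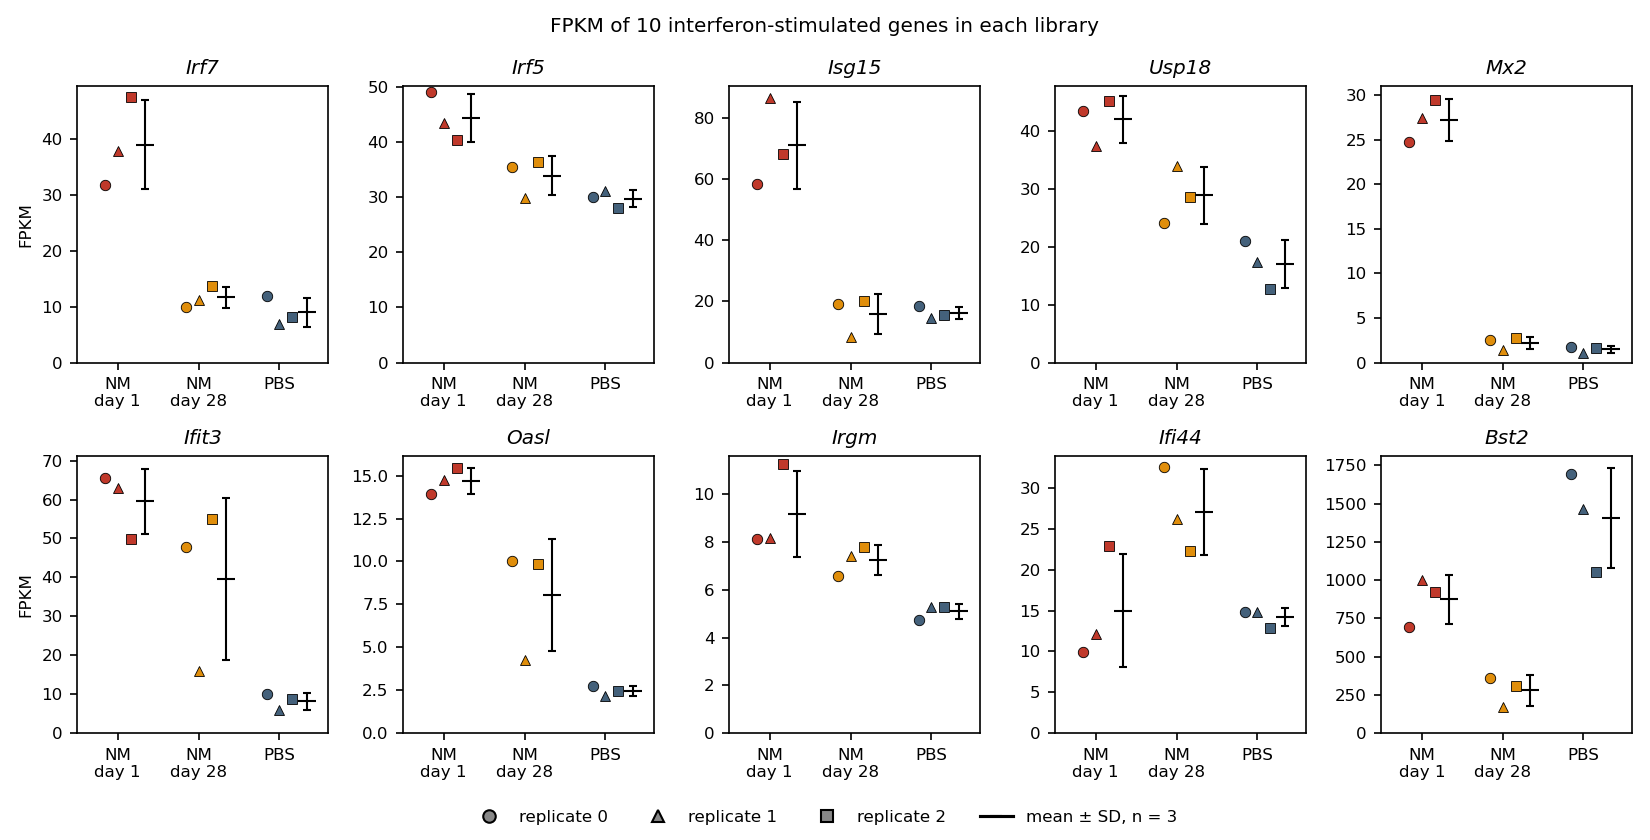
FPKM of each of the 10 genes (vertical axis, from 0) in the 3 NM day 1, 3 NM day 28 and 3 PBS libraries. Symbols mark the replicate number, and bars beside them give the mean ± SD (n = 3). Mx2, Irf7 and Isg15 stand highest at NM day 1, Ifit3 and Oasl are above PBS at both days with NM day 28 replicate 1 low, and Bst2 is highest in PBS.

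Of the 10 genes 8 had all 3 NM day 1 libraries above all 3 PBS libraries, against 15.2% of the 9876 genes tested, and 1 (Bst2) had them all below, against 18.1%. At NM day 28, 5 had all libraries above PBS, against 12.7% of genes tested, and Bst2 had them all below, against 14.4%. Since the genes were chosen on these values, nothing is read from their shares. They fall into 4 that were above PBS at day 1 only (Mx2, Irf7, Isg15 and Irf5), 4 above PBS at both days (Ifit3, Oasl, Usp18 and Irgm), Ifi44 above PBS at day 28 only, and Bst2 below PBS at both days. With NM day 28 against NM day 1, 8 genes had all libraries below, against 15.7% of genes tested, and 0 had all libraries above, against 15.1%. The 2 that overlapped were Ifit3 and Ifi44.

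The sorting at day 28 turned on single libraries, and each of the 4 genes above PBS at day 1 only left that class without 1 of them. NM day 28 replicate 1 held less than 50% of the lower of the other NM day 28 libraries for Isg15 (43.9%), Ifit3 (33.3%) and Oasl (43.1%), which was so for 4.36% of 9512 genes above 0 in the 3 libraries. Mx2 stood at 56.9% and Bst2 at 53.9% in the same library, while Irf7, Usp18, Ifi44 and Irgm were not lowest there. Without NM day 28 replicate 1, 8 of the 10 genes had NM day 28 libraries above all PBS libraries, against 19.4% of genes tested, since Mx2, Isg15 and Irf5 joined. Without PBS replicate 0, Irf7 joined instead, so that 6 of the 10 had all NM day 28 libraries above the remaining PBS libraries, against 16.7% of genes tested. The ratio of means against PBS without NM day 28 replicate 1 was 1.77 for Mx2, 1.22 for Isg15, 1.21 for Irf5, 6.32 for Ifit3 and 4.04 for Oasl. With all libraries it was 1.501, 0.985, 1.14, 4.87 and 3.27. The summed level of 10 neutrophil markers was also lowest in replicate 1 among the NM day 28 libraries. It was 609, 241 and 724 FPKM in replicates 0, 1 and 2. Replicate 1 was lowest as well for the summed markers of alveolar macrophages, alveolar and airway epithelium, plasmacytoid dendritic cells and B cells. It was highest for those of monocytes and recruited macrophages, T cells and endothelium, and in between for dendritic and natural killer cells. The part of any of these cells in the values of the members was not tested. At day 1, leaving out NM day 1 replicate 2 put Ifi44 below PBS in every remaining library. After quantile normalisation the NM day 1 and PBS libraries of Bst2 overlapped.

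**Figure D3:**
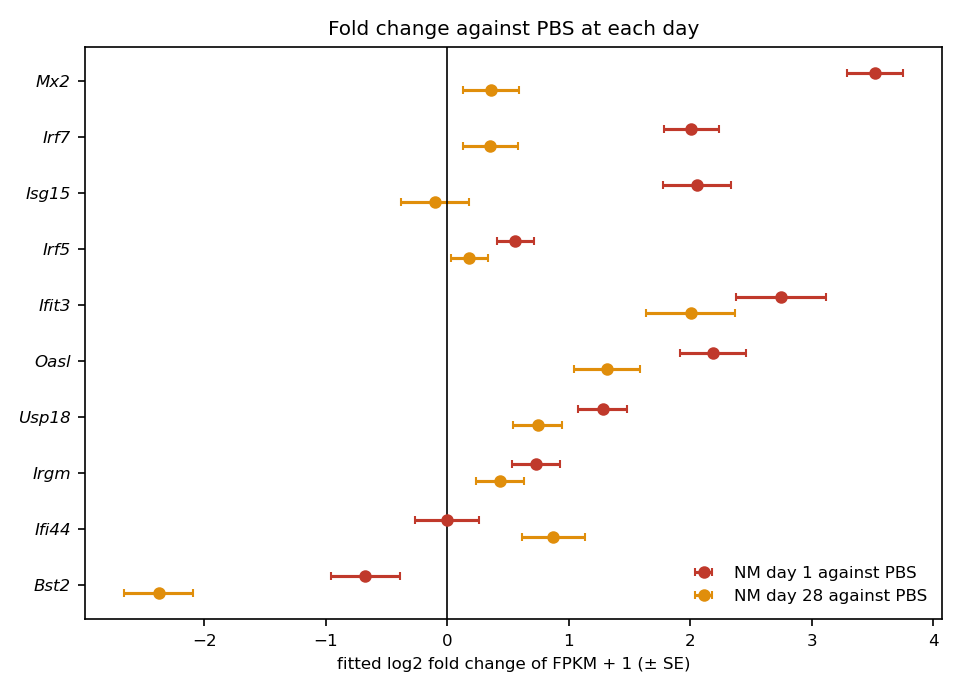
Fitted log2 fold change of FPKM + 1 against PBS (horizontal axis, ± SE) for NM day 1 (red) and NM day 28 (orange), from a fit of all 9 libraries. Mx2 is at 3.52 and 0.36, Ifit3 at 2.75 and 2.00, Ifi44 at 0.00 and 0.87 and Bst2 at -0.68 and -2.38.

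Set directly against NM day 1, NM day 28 had fitted log2 differences of -3.16 ± 0.23 for Mx2, -2.16 ± 0.28 for Isg15, -1.70 ± 0.28 for Bst2 and -1.65 ± 0.23 for Irf7 (SE). Smaller differences were fitted for Oasl (-0.87), Ifit3 (-0.74), Usp18 (-0.53), Irf5 (-0.38) and Irgm (-0.29), and Ifi44 alone had a positive one, 0.88 ± 0.26. The addition of 1 FPKM makes the values of low genes smaller than the ratio of their FPKM. For Mx2 the ratio of means was 0.0812.

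The libraries differed in depth and in markers of other cells. Relative depth, taken from the commonest ratio between libraries of low FPKM values with NM day 1 replicate 0 set to 1, ran from 1.00 to 1.47 at NM day 1, from 1.03 to 1.12 at NM day 28 and from 1.42 to 2.58 in PBS. It rests on few values, since the commonest ratio was held by 13 to 24 of 682 to 808 ratios at NM day 28. In PBS it was held by 38 to 74 of 1086 to 1212. Absolute depth was unknown. Spearman's rho across the genes tested was 0.953 to 0.982 within groups and 0.917 to 0.956 between them. Of 8 alveolar macrophage markers with a row, Marco was listed at 0 in every library and 7 were tested, with sums of 1281 to 1777 FPKM at NM day 1, 1361 to 1500 FPKM at NM day 28 and 1341 to 3106 FPKM in PBS. At NM day 1 limma called Car4 higher and Pparg lower than PBS and did not call the other 5, and at NM day 28 it called Car4 higher and Mrc1 lower. Pparg averaged 120.1 ± 18.3, 183 ± 8.73 and 177 ± 2.78 FPKM at NM day 1, NM day 28 and in PBS, and Car4 12.8 ± 7.79, 6.65 ± 4.27 and 0.25 ± 0.32 FPKM (SD, n = 3 each). Summed neutrophil markers ran from 553 to 981 FPKM at NM day 1, from 241 to 724 FPKM at NM day 28 and from 82.6 to 118 FPKM in PBS, and 5 and 4 of 7 tested were called higher at NM day 1 and NM day 28 than in PBS. Of 10 monocyte and recruited macrophage markers tested, 7 were called higher at NM day 1 and 3 at NM day 28, while their sums were 8431 to 12978 FPKM at NM day 1, 12403 to 14562 FPKM at NM day 28 and 12488 to 24096 FPKM in PBS. Among them Ccr2 averaged 6.39 ± 2.96 FPKM at NM day 1 and 0.41 ± 0.36 FPKM at NM day 28, and was listed at 0 in the PBS libraries. Of 5 dendritic cell markers tested, 3 were called higher at NM day 1 and 0 at NM day 28 (limma, with 0 at an unadjusted p under 0.05), with sums of 104 to 125 FPKM at NM day 1, 60.0 to 63.2 FPKM at NM day 28 and 47.3 to 75.7 FPKM in PBS. Summed markers of alveolar epithelium were 992 to 2999 FPKM at NM day 1, 276 to 377 FPKM at NM day 28 and 209 to 318 FPKM in PBS, and those of T cells 61.3 to 71.4, 28.3 to 35.0 and 22.4 to 33.4 FPKM. Natural killer cell markers summed to 38.4 to 48.6, 9.03 to 20.4 and 5.88 to 6.06 FPKM in the same order of groups. Of 3 tested, limma called Klrk1 higher than PBS at NM day 1 and Ncr1 at NM day 28. Markers of plasmacytoid dendritic cells, which make much type I interferon, summed to 74.7 to 101 FPKM at NM day 1, 105 to 125 FPKM at NM day 28 and 109 to 121 FPKM in PBS without Bst2, and 0 of 5 tested were called at either day by limma, with 0 at an unadjusted p under 0.05. In such bulk samples fewer cells of a type and less RNA per cell cannot be told apart, and the part of other cells in the levels of the members and of the other pathway genes was not tested.

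The rest of the interferon pathway was taken from a list of 135 genes by role, of which 104 had a row and 92 were tested. Differences were tested with limma on log2(FPKM + 1), and a gene is called where its adjusted p (Benjamini-Hochberg, over all genes tested) lies under 0.05. At NM day 1 against PBS, 19 of the 92 were higher (20.7%) and 2 lower (2.17%), compared with 5.30% and 4.59% of all genes tested. Their median log2 fold change was 0.14, against -0.04 over all genes tested. Against PBS, NM day 28 had 6 higher genes (6.52%) and 4 lower ones (4.35%), compared with 3.07% and 3.97% of all genes, and the median was -0.07 against -0.04. Against NM day 1, NM day 28 had 1 higher gene and 20 lower ones (21.7%), compared with 4.76% and 6.89% of all genes, with medians of -0.35 and -0.00388. The lower counts rested on single libraries: with each left out in turn, 0 to 3 genes were lower at NM day 1 and 0 to 6 at NM day 28. The NM day 1 count was 0 without any NM day 1 library, NM day 28 replicate 0 or PBS replicate 1, and 1 without NM day 28 replicate 2, PBS replicate 0 or PBS replicate 2. The NM day 28 count was 2 without NM day 1 replicate 1, NM day 1 replicate 2 or NM day 28 replicate 0, 1 without PBS replicate 0 and 0 without PBS replicate 1. The 20 became 12 without NM day 1 replicate 1 or 2. The 1 higher gene became 3 without NM day 28 replicate 1 or PBS replicate 2.

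**Figure D4:**
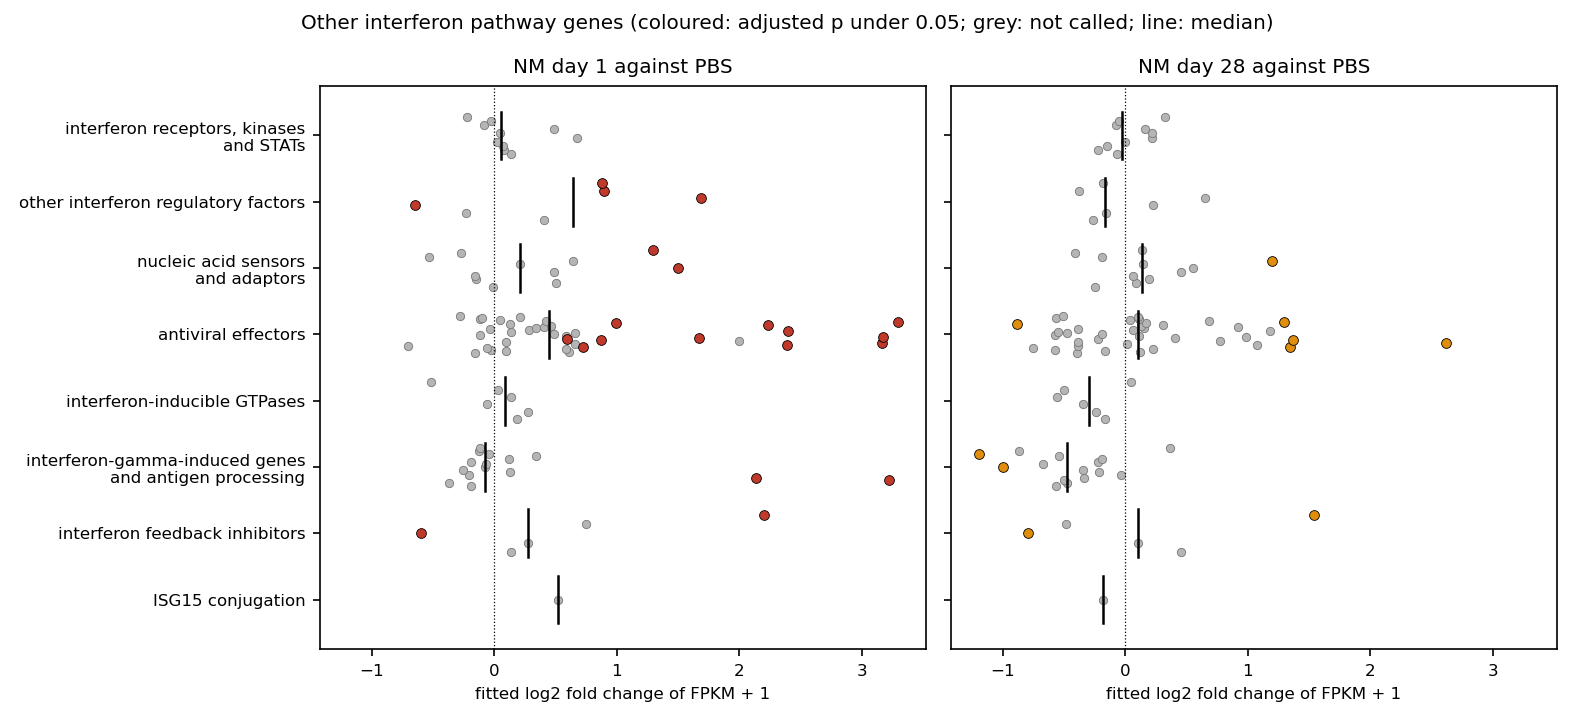
Fitted log2 fold change of FPKM + 1 against PBS for the 92 other interferon pathway genes tested, by role (rows), at NM day 1 (left) and NM day 28 (right). Coloured points passed an adjusted p of 0.05, grey points did not, and black lines are medians. The medians of the antiviral effectors were 0.45 at NM day 1 and 0.11 at NM day 28, and those of the receptors, kinases and STATs 0.06 and -0.03.

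No interferon gene could be tested. Ifnb1 (interferon beta), Ifng (interferon gamma) and Ifna5 were listed at 0 in every library, and 0 of the 6 ligands with a row passed the filter. A 0 in the deposited values may be a row without an estimate, since 4061 of the 17086 genes, among them Marco and the broadly used kinase Eif2ak2, were listed at 0 in every library. Of 10 receptors, kinases and STATs, limma called 0 against PBS at either day, with 2 at an unadjusted p under 0.05 at NM day 1 (Irf9 and Jak2) and 0 at NM day 28. Stat2 had 43.0 ± 2.44 FPKM at NM day 1, 42.3 ± 4.34 FPKM at NM day 28 and 44.1 ± 7.14 FPKM in PBS (SD, n = 3 each). Irf9, its partner, had 39.1 ± 8.53 FPKM at NM day 1, 28.8 ± 9.997 FPKM at NM day 28 and 24.2 ± 6.54 FPKM in PBS (adjusted p = 0.124 at NM day 1 and 0.66 at NM day 28, limma). The type I receptor chain Ifnar1 had log2 fold changes of 0.14 ± 0.15 and -0.06 ± 0.15 (SE), and the interferon gamma receptor chains Ifngr1 and Ifngr2 of 0.08 and 0.07 at NM day 1 and -0.22 and -0.15 at NM day 28, none of them called.

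Among 6 other interferon regulatory factors tested, Irf8, a factor of the macrophage and dendritic lineages, rose to 43.6 ± 11.8 FPKM at NM day 1, against 22.8 ± 2.35 FPKM in PBS (SD, n = 3 each). Limma gave it a log2 fold change of 0.88 ± 0.19 (SE) with an adjusted p of 0.0163. Irf4 (1.69) also rose, and Irf3, the factor that starts interferon production after nucleic acid sensing, fell (-0.65, adjusted p = 0.0436). Irf1, a target of interferon gamma, was not called at either day (0.41 ± 0.25 and -0.26 ± 0.25, SE). Limma called 0 of the 6 at NM day 28 against PBS, with 1 (Irf4) at an unadjusted p under 0.05. Of 11 sensors and adaptors, Sting1, which relays the sensing of cytosolic DNA, rose at NM day 1 (1.502 ± 0.21 SE, adjusted p = 0.000897 by limma), as did Zbp1 (1.29). Tlr3, the endosomal receptor for double-stranded RNA, was called higher at NM day 28 (1.19, adjusted p = 0.0118). At NM day 1 all 3 Tlr3 libraries also lay above all 3 PBS libraries, without a call (0.64, adjusted p = 0.113). Limma's test of Tlr3 between NM day 28 and NM day 1 gave adjusted p = 0.156. The NM day 1 call of Irf3 was lost on leaving out any NM day 1 library, NM day 28 replicate 0, or 1 of PBS replicates 1 and 2 (adjusted p as high as 0.173, without PBS replicate 1). Zbp1 missed without NM day 1 replicate 1 or 2 or any PBS library (up to 0.1) and Irf8 without NM day 1 replicate 1 or PBS replicate 1 (up to 0.0804), and Irf3 and Zbp1 missed after quantile normalisation (0.157 and 0.0586) and without a filter (0.0554 and 0.0620). Irf3 also missed after median-of-ratios scaling (0.0590) and with isoforms singly (0.0545).

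Antiviral effectors other than the 10 genes rose in 11 of 38 at NM day 1 and in 4 at NM day 28, with 1 lower there. Slfn4, a schlafen protein known from mouse myeloid cells, had 310.0, 411 and 458 FPKM at NM day 1, 100.5, 89.2 and 98.4 FPKM at NM day 28 and 38.5, 26.5 and 56.1 FPKM in PBS, and rose at both days (adjusted p = 5.92e-06 and 0.00767, limma). Ifitm1, which blocks the entry of viruses at membranes, also rose at both, to 351 ± 55.4 and 246 ± 72.5 FPKM, against 39.7 ± 15.8 FPKM in PBS (SD, n = 3 each). Isg20, an RNA exonuclease, and Ifi27l2b had their larger rises at NM day 28 (1.37 and 1.34, against 0.87 and 0.72 at NM day 1), but limma's test between NM day 28 and NM day 1 gave adjusted p = 0.0863 and 0.0635. Rsad2, the viperin enzyme, had 4.11, 3.98 and 4.38 FPKM at NM day 1, 0.70, 0.36 and 0.083 FPKM at NM day 28 and 0.072, 0.15 and 0.066 FPKM in PBS, and rose at NM day 1 (log2 fold change 2.23, against 0.31 at NM day 28). Ly6e rose at NM day 1 (3.17 ± 0.35 SE, adjusted p = 0.000186 by limma) and was not called at NM day 28 (0.99, adjusted p = 0.111), where it passed without NM day 28 replicate 1 (0.0381). The call of Isg20 at NM day 1 ended without NM day 1 replicate 0 (adjusted p = 0.0586). That of Ifi27l2b at NM day 1 was lost on leaving out any NM day 1 library, 1 of NM day 28 replicates 0 and 2, or 1 of PBS replicates 1 and 2 (as high as 0.115), and it missed without a filter, with only the 6 libraries compared and with isoforms singly (0.0552, 0.0528 and 0.0514).

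Close relatives of the members did not all share their levels. Mx1, the other Mx GTPase in the list, had 25.2 ± 7.81 FPKM at NM day 1, 17.5 ± 2.95 FPKM at NM day 28 and 15.96 ± 1.33 FPKM in PBS (SD, n = 3 each), and was not called (fitted value 0.59 ± 0.22 SE at NM day 1, adjusted p = 0.109 by limma), beside a fitted 3.52 for Mx2. Ifit1, which binds foreign RNA caps, rose at NM day 1 to 14.2 ± 3.94 FPKM, against 1.89 ± 0.78 FPKM in PBS (2.39 ± 0.34 SE, adjusted p = 0.00107). Its NM day 28 libraries had 8.75, 2.96 and 4.39 FPKM, and Ifit1 did not pass there (adjusted p = 0.0811) but did without NM day 28 replicate 1 (0.031). Ifit2 was not called at NM day 1 (0.66 ± 0.21 SE, adjusted p = 0.0678) and passed without NM day 28 replicate 1 (0.0365). Differences between relatives were not tested, and reads of similar sequence within the Mx, Ifit and Oas families may be shared between rows.

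Isg15 conjugation was covered by 1 other gene with a row, the conjugating enzyme Ube2l6, at 4.10, 1.13 and 1.22 FPKM at NM day 1, 0.48, 0.98 and 0.91 FPKM at NM day 28 and 2.08, 0.55 and 0.72 FPKM in PBS, which was not called at either day. Of 6 interferon-inducible GTPases other than Irgm, limma called 0 against PBS at either day. At an unadjusted p under 0.05 there was 1 at NM day 1 (Irgq, -0.51) and 2 at NM day 28 (Ifi47, -0.56, and Igtp, -0.50), all lower than PBS. Of 15 interferon-gamma-induced and antigen processing genes, Ciita, the activator of MHC class II genes, and Cxcl10, a chemokine for T cells, rose at NM day 1. Ciita reached 14.2 ± 3.86 FPKM, against 0.63 ± 0.45 FPKM in PBS (SD, n = 3; adjusted p = 2.88e-05 by limma), and had 0.12 ± 0.11 FPKM at NM day 28. Cxcl10 had 2.96, 9.18 and 8.46 FPKM at NM day 1, 1.22, 0 and 0 FPKM at NM day 28 and 0.76, 1.06 and 0.23 FPKM in PBS (adjusted p = 0.00935 at NM day 1, 0.0649 with a pseudocount of 0.1). At NM day 28 the peptide transporter subunit Tap2 (-1.20 ± 0.26 SE, adjusted p = 0.0187 by limma) and the immunoproteasome subunit Psmb8 (-0.997 ± 0.26, adjusted p = 0.0395) fell below PBS. Both calls were lost on leaving out PBS replicate 0 or 1, and that of Psmb8 also on leaving out 1 of NM day 1 replicates 1 and 2 or of NM day 28 replicates 0 and 1 (as high as 0.122, without PBS replicate 1). Psmb8 also missed without a filter, with only the 6 libraries compared and with isoforms singly (0.0854, 0.0718 and 0.0597).

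Among feedback inhibitors, Socs3, which curbs Jak kinases, rose at both days, to 52.5 ± 19.6 FPKM at NM day 1 and 33.7 ± 14.9 FPKM at NM day 28, against 10.1 ± 1.495 FPKM in PBS (SD, n = 3 each; adjusted p = 0.00279 and 0.0232 by limma). The phosphatase Ptpn6 fell at both (-0.60 and -0.79, adjusted p = 0.0352 and 0.0121). Socs3 at NM day 28 missed on leaving out 1 of its NM day 28 replicates 0 and 2 or of PBS replicates 0 and 1 (as high as 0.0857) or without a filter (0.0664), and Ptpn6 at NM day 28 without PBS replicate 1 (0.0663). Ptpn6 at NM day 1 missed on leaving out any NM day 1 library, 1 of NM day 28 replicates 0 and 2, or 1 of PBS replicates 0 and 1 (as high as 0.157), and after quantile normalisation or median-of-ratios scaling (0.135 and 0.0532).

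Genes of like pattern were ranked by Pearson's r over the 9 libraries with the mean z-score of each timing group, among 8212 genes with a group mean of at least 5 FPKM. These r values describe likeness, carry no test, and rest on the same 3 groups of libraries. With Mx2, Irf7, Isg15 and Irf5 ranked a transcript without a symbol (0.988), then Ccl17 (0.986), Tgfbi (0.977), Ccl22 (0.976) and Rab30 (0.976). With Ifit3, Oasl, Usp18 and Irgm ranked Slpi (0.980), Slc28a2 (0.979), Kcnn4 (0.971) and Cxcr2 (0.9696). Slpi, a protease inhibitor of mucosal fluids, had 101 ± 17.7 FPKM at NM day 1, 22.4 ± 12.7 FPKM at NM day 28 and 0.82 ± 0.28 FPKM in PBS (SD, n = 3 each). The nearest to Ifi44 were Glt8d1 (0.986), Cyp51 (0.940), Noa1 (0.934), Xkr8 (0.929) and Stradb (0.924), and Cyp51, a sterol synthesis enzyme, had 22.2 ± 4.69 FPKM at NM day 1, 34.8 ± 3.47 FPKM at NM day 28 and 20.2 ± 2.11 FPKM in PBS. The nearest to Bst2 were Tmed9 (0.984), Txndc15 (0.983), Slc27a4 (0.981), Ndufa7 (0.971) and Hypk (0.967).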

How the data were processed

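The members, lists and tests were chosen with earlier results of these data known. Per the submitters' processing notes, the tools were TopHat and Cuffdiff and the genome build was rn4, and per the labels' protocols libraries came from a TruSeq kit read as paired ends of 75 bases. Tool versions and the annotation are not given in the sources used here. FPKM were deposited by the authors for 18197 RefSeq transcript rows in 9 libraries. A RefSeq table (GRCr8) named 17189 rows, and isoforms were summed per gene. Genes with at least 1 FPKM in at least 3 of 9 libraries entered limma 3.58.1 (R 4.3.3; 3 group means, shared spread, eBayes with trend) on log2(FPKM + 1), with Benjamini-Hochberg adjustment, after a check on simulated data. P-values measure the spread between these libraries, which the series' design text calls biological replicates. The text names, per role and comparison with PBS, no more than 4 called pathway genes by smallest p, and whatever their values Stat2, Irf9, Irf1, Irf3, Irf8, Ifnar1, Ifngr1, Ifngr2, Ifnb1, Ifng, Mx1, Ifit1, Ifit2, Ube2l6 and Cxcl10 (Ifnar2, Uba7 and Herc6 were not analysed here). A few genes that these rules select are not reported here. Others named at an unadjusted p were picked after their values were seen. Promoters came from RefSeq. Python 3.11.15 with pandas 2.3.3 was used. Each library was left out in turn. Other settings tried were the replicate number as a block, only the 6 libraries compared, isoforms singly, quantile normalisation, scaling by median of ratios, a stricter filter (5 FPKM) or none, and pseudocounts of 0.1 and 5.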

Additional observations from a re-analysis of the deposited data

Results flagged for a closer look

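Levels at NM day 28 and NM day 1 differed for 13 of the named pathway genes by limma's contrast of these groups, which the PBS mean does not enter. The single PBS group was not matched to each day. A changed effect of NM therefore cannot be told apart from a change with time or age. The fitted log2 difference was 0.88 for Irf3, the single gene higher at NM day 28. It was -1.06 for Irf8 and -1.04 for Irf4 among the regulatory factors, and -0.95 for Sting1 and -1.15 for Zbp1 among the sensors. Among the effectors it was -1.32 for Ifit1, -2.01 for Slfn4, -2.18 for Ly6e and -1.92 for Rsad2. It was -2.48 for Cxcl10, -3.73 for Ciita, -1.16 for Tap2 and -0.92 for Psmb8. Calls of Ifit1, Irf4, Psmb8, Sting1, Tap2 and Zbp1 did not all survive leaving out single libraries (any of NM day 1 and NM day 28, and PBS replicates 1 and 2), with adjusted p as high as 0.142 for Zbp1 without NM day 1 replicate 1. Without a filter Ifit1, Psmb8 and Zbp1 missed, and after quantile normalisation Irf4 and Zbp1. Psmb8 and Zbp1 missed with only the 6 libraries compared and with isoforms singly. Zbp1 also missed with a pseudocount of 0.1 or a filter of 5 FPKM. The 10 members were fitted with the other genes, but no test of them is given here.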

How the results depend on the processing

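Of 540 alternative log2 values of the members 527 moved by no more than the spread between replicates and 13 by more, 12 of them with another pseudocount and 0 with a change of sign among values whose libraries did not overlap. Mx2 at NM day 1 was 4.14 with a pseudocount of 0.1 and 2.32 with 5. Members below PBS at NM day 1 numbered 0 after quantile normalisation, where Bst2 overlapped PBS, and 1 to 2 with a library left out. Members above PBS at NM day 28 numbered 5 to 8 (8 without NM day 28 replicate 1, 6 without PBS replicate 0), at NM day 1 always 8. Of 1497 alternative tests of named pathway genes 90 ended a call, 7 gave one and 0 turned its sign. Pathway genes lower at NM day 1 numbered 1 without a filter, after quantile normalisation or with isoforms singly and 0 after median-of-ratios scaling or with the replicate block. With libraries left out they numbered 0 to 3. Those lower at NM day 28 numbered 2 without a filter, with only the 6 libraries compared or with isoforms singly, and 0 to 6 with libraries left out. At NM day 28 against NM day 1, the higher numbered 2 with only the 6 libraries compared or after quantile normalisation (1 to 3 with libraries left out) and the lower 13 with a filter of 5 FPKM, which tests fewer genes (12 to 20 with libraries left out). Where no construction is named, the cause was not tested. Whether the replicate numbers pair the libraries could not be settled. Deviations of same-numbered libraries correlated at -0.104 to 0.195, inside the range for other numbers (-0.261 to 0.248), and 4 of 9 libraries were closest to their own number. With the replicate block 15 pathway genes were higher at NM day 1 and 7 at NM day 28. The NM day 1 calls of Irf3, Ifi27l2b and Ptpn6 were lost with it (adjusted p = 0.0572, 0.0568 and 0.0659, limma). Without the block, the counts of higher genes were 14 to 20 at NM day 1 and 5 to 8 at NM day 28 with libraries left out. Without counts, intervals for low FPKM cannot be given.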
